A study of Mus musculus with 7 samples.

Results

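Neutrophils store the peroxidase and proteases with which they kill microbes in primary (azurophilic) granules, and the genes for this cargo are transcribed at the promyelocyte stage in the marrow, before secondary and tertiary granules are made. Mpo encodes the peroxidase, Elane, Prtn3, Ctsg and Prss57 encode serine proteases, Cst7 encodes a cathepsin inhibitor, Ms4a3 a membrane protein of granulocyte and monocyte precursors and Plac8 a small cysteine-rich protein of myeloid cells. Cebpa and Gfi1 encode transcription factors that granulocyte formation requires. These 10 genes were followed in a bone marrow RNA-seq series by their symbols, and all 10 were found among the 49315 Ensembl genes of the count table and passed the filter on low counts, out of 17920 genes tested.

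The 4 knockout libraries (KO) carried the genotype miR-181a2b2-/-, and the 3 control libraries (flox) carried miR-181a2b2flox/flox, which their titles call WT. All 7 libraries came from the marrow of mice that were fed chow and had undergone hindlimb ischemia, a surgical block of blood flow to the leg. The labels name no Cre line, promoter, strain, age or sex, and they do not say whether each library is a separate animal, so the tests weigh differences against library-to-library spread alone, which may be technical. By its title, the series asks how miR-181a/b and CXCR4 in marrow bear on blood formation and vessel growth in limb ischemia, and the cluster on chromosome 2 that the genotype names encodes these 2 microRNAs, shown here because they are what the groups differ by, with the seed (bases 2 to 8) in capitals, from RefSeq on GRCm38.p6 (chr2:38852741-38852763 and chr2:38853845-38853868, plus strand).
mmu-miR-181a-5p: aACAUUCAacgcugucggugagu
mmu-miR-181b-5p: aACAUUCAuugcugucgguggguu

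The counts of the hairpin genes Mir181a-2 and Mir181b-2 were 0 in all 4 KO and all 3 flox libraries, so these poly(A) libraries give no check of the genotype at the deleted genes. Both microRNAs share the seed, so they share its 7-base complement as a candidate target site. None of the 10 genes held that complement in its longest annotated 3' UTR (GENCODE M21), against 16.4% of the 21039 genes with such a UTR. The UTRs searched ran from 78 bases in Ctsg to 1795 bases in Prss57, and a missing match says only that these letters are not in these UTRs.

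Libraries held 43110251 to 48320848 counts in KO and 46151300 to 51688514 counts in flox. Levels below are CPM, counts scaled to a common total, on TMM-scaled library sizes. Haemoglobin genes stood high in every library, with Hbb-bs at 15247 to 32058 CPM, and the leukocyte gene Ptprc at 690.1 to 820.2 CPM. The extraction text in the labels names white adipose tissue, whose defining genes Lep (0 to 0.0455 CPM) and Plin1 (0.0843 to 0.916 CPM) were near 0, as were Plin4 (0.337 to 1.15 CPM) and Retn (0.443 to 0.82 CPM), with Cidec close to Plin4. Of the same list of 10, Cfd stood at 0.774 to 4.48 CPM, Adipoq at 4.22 to 19.7 CPM, and Fabp4 (22.3 to 54.1 CPM), Lipe (27.3 to 33.4 CPM) and Pnpla2 (72.9 to 105 CPM), which other cells also express, higher. On the first principal component (34.7% of the variance), flox 1, 2 and 3 lay at 58.7, 14.2 and 5.48, and the KO libraries between -23.2 and -16.6. On the second (18.8%), flox 1, 2 and 3 lay at 21.7, -41.9 and -9.54, and the KO libraries between -3.37 and 20.7. Flox 1 stood farthest out on the first and flox 2 on the second.

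All 10 genes had lower mean levels in KO than in flox marrow, and none passed the test over all genes. The median log2 fold change (KO minus flox) of the 10 genes was -0.59, against -0.01 over all tested genes. In edgeR's quasi-likelihood test 0 of the 10 had an adjusted p under 0.05, where 0.145% of all tested genes did and 0.0112% did with a lower level in KO. At an unadjusted p under 0.05, 8 of the 10 were lower in KO, against 8.17% of all genes; the exceptions were Cebpa and Plac8. That count of 8 was 4 without flox 2, without KO 1 or without KO 3, and 4 with no filter on low counts. It was 7 without KO 4, 9 with the replicate number as a block and 10 without flox 1. It stayed at 8 in the other fits. Over all tested genes, in either direction, the count was 2520 of 17920 in the main fit. It was 2007 of 18325 without flox 2, 2099 of 17729 without KO 1, 1887 of 17724 without KO 3 and 3040 of 30951 with no filter. It was 1850 of 17731 without KO 4, 2094 of 17920 with the block and 2215 of 18296 without flox 1. For these changed fits the genes lower in KO were not counted apart. By direction alone 10 of 10 were lower, against 51.9% of all genes, and 5 of 10 were at least 1.5-fold lower, against 5.35%. The 10 genes varied together and were listed with earlier results of these data known, so these counts are no test of the list. DESeq2, which passed 362 of 17920 tested genes (132 lower in KO), passed Elane (adjusted p = 0.0475) and Prss57 (0.0306). Limma-voom, which passed 13 genes, passed none of the 10. In whole marrow, fewer promyelocytes and less RNA per cell cannot be told apart. Flox 2 had the highest level of all 7 libraries for each of the 10 genes. Without it the median was -0.28, with all 10 genes below 0.

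**Figure D1:**
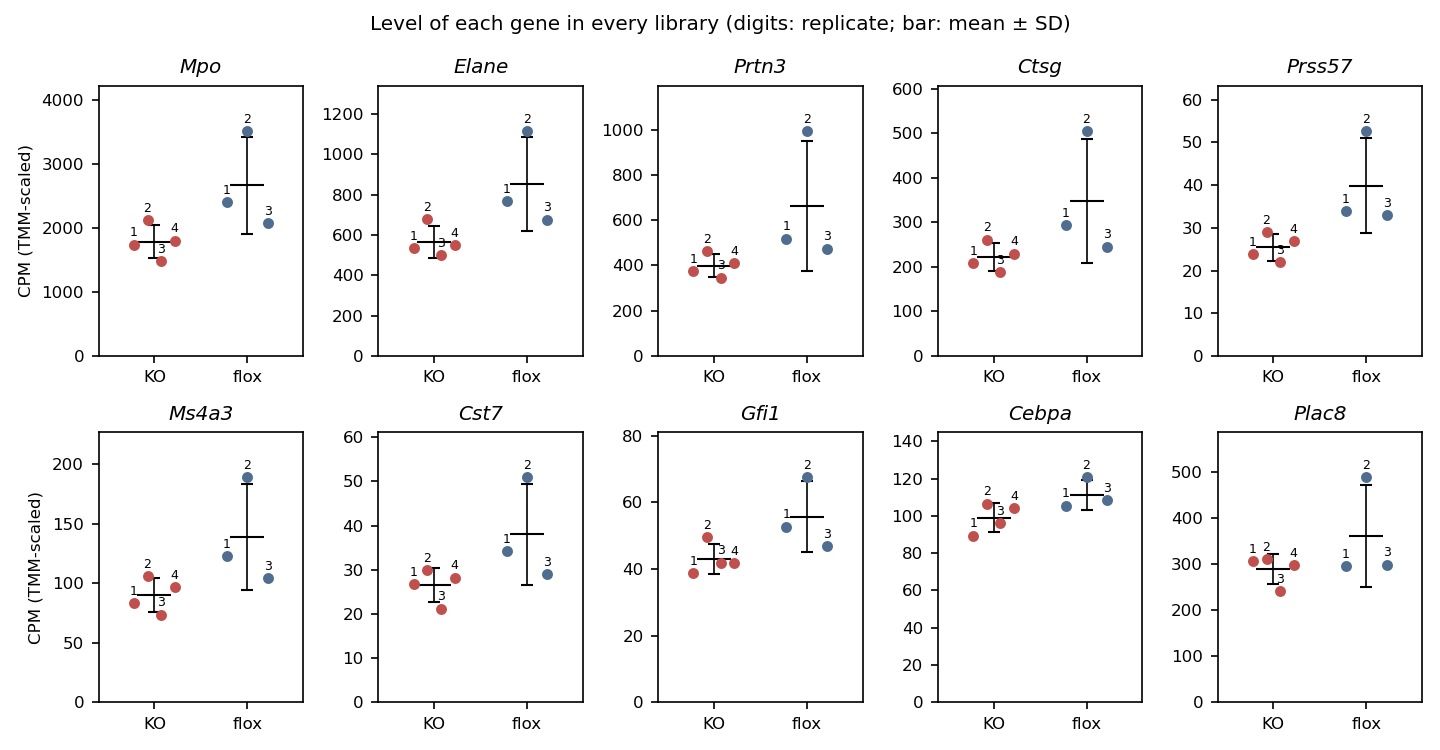
Level of each of the 10 genes in every library, in CPM on TMM-scaled library sizes, with KO (red) left of flox (blue); digits give the replicate, and the bar with its whiskers the group mean and SD. Flox 2 is the highest point in all 10 panels, and KO 2 is the highest KO point in all 10.

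Mpo (ENSMUSG00000009350, GRCm38 chr11:87793581-87804413, plus strand), the gene of the haem peroxidase that makes hypochlorous acid, stood at 1736, 2125, 1485 and 1803 CPM in the KO libraries, against 2408, 3515 and 2076 CPM in the flox libraries. The groups overlapped, since KO 2 lay above flox 3. The means were 1787 ± 263 CPM in KO (SD, n = 4) and 2666 ± 754 CPM in flox (SD, n = 3). KO minus flox, the log2 difference came to -0.58 with an SE of 0.18 (95% interval -0.99 to -0.16) and an edgeR adjusted p of 0.245. Without flox 2 it was -0.31. The span of the predicted antisense gene Gm11505 overlaps that of Mpo over 5361 bases, introns included, and how much of the overlap is exon was not determined. Gm11505 had 392 to 473 counts in KO and 478 to 811 in flox. No source used here gives the strand setting, so reads in any exon that such genes share cannot be told apart. The same holds for Fstl3 in Prss57 (1157 bases, 116 to 175 counts in KO and 127 to 159 in flox), A430072P03Rik in Gfi1 (880 bases) and Gm45091 in Cebpa (313 bases).

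Among the serine proteases, Elane (chr10:79886247-79888215, plus strand), the neutrophil elastase gene, had 533.7, 676.9, 499.3 and 550.5 CPM in KO and 768.6, 1116 and 676.1 CPM in flox. KO 2 and flox 3 were level, and each other KO library lay below every flox library. The log2 fold change was -0.59 (SE 0.17), with an edgeR adjusted p of 0.231, and -0.34 without flox 2. Prtn3 (chr10:79874476-79883174, plus strand), which encodes proteinase 3, had 374, 464, 346 and 411 CPM in KO and 519, 995 and 474 CPM in flox. Its groups did not overlap, and flox 2 stood far above flox 1 and flox 3. Over all libraries its log2 fold change was -0.73 (SE 0.26), with an edgeR adjusted p of 0.287, and without flox 2 it was -0.30.

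Ctsg (chr14:56099881-56102574, minus strand), the cathepsin G gene, had 209, 261, 189 and 229.9 CPM in KO and 293, 505 and 245 CPM in flox, so that KO 2 lay above flox 3. Its log2 fold change was -0.65 (SE 0.24), with an edgeR adjusted p of 0.312, and -0.26 without flox 2. Prss57 (chr10:79781474-79790961, minus strand), the gene of a neutrophil serine protease with a preference for arginine, had 23.8, 29.0, 21.9 and 26.9 CPM in KO and 33.9, 52.7 and 33.0 CPM in flox. All 4 KO libraries lay below all 3 flox libraries. Its log2 fold change of -0.65 (SE 0.17, 95% interval -1.05 to -0.25), with an edgeR adjusted p of 0.22, had the lowest p of the 10 genes and was -0.38 without flox 2. Prss57 and Prtn3 were the 2 of 10 genes whose groups did not overlap, against 7.41% of all tested genes that were lower in KO without overlap.

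Ms4a3 (chr19:11629496-11640851, minus strand) had 83.2, 106, 73.6 and 97.0 CPM in KO and 123, 189 and 104 CPM in flox, with KO 2 just above flox 3. The log2 fold change was -0.63 (SE 0.21), with an edgeR adjusted p of 0.275. Cst7 (chr2:150570415-150578944, plus strand), whose product cystatin F inhibits the cathepsin that activates granule proteases, had 26.7, 30.0, 21.2 and 28.2 CPM in KO and 34.2, 50.9 and 29.0 CPM in flox. Its groups overlapped in the same way, and the log2 fold change was -0.52 (SE 0.20), with an edgeR adjusted p of 0.302. Without flox 2 the values were -0.32 for Ms4a3 and -0.23 for Cst7.

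The 2 regulators had smaller differences than the cargo genes other than Plac8; the gap was not tested. Gfi1 (chr5:107716657-107726036, minus strand), a zinc finger repressor of the neutrophil lineage, had 38.7, 49.4, 41.9 and 41.8 CPM in KO and 52.7, 67.4 and 46.8 CPM in flox, and its log2 fold change was -0.37 (SE 0.13), with an edgeR adjusted p of 0.267. KO 2 was the only KO library above a flox library. Cebpa (chr7:35119293-35121928, plus strand), the basic leucine zipper factor needed for granulocyte and monocyte progenitors, had 89.5, 107, 96.1 and 104 CPM in KO and 105, 121 and 108 CPM in flox. It was the gene with the smallest difference of the 10, at -0.17 (SE 0.08, 95% interval -0.35 to 0.02), with an edgeR adjusted p of 0.39. Its flox spread was also the narrowest, with a coefficient of variation of 7.22%, against 19.1% to 43.5% for the other 9 genes.

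Plac8 (chr5:100553725-100572245, minus strand) had 307, 311, 241 and 298 CPM in KO and 296, 488 and 299 CPM in flox, so that flox 1 and flox 3 lay within the KO range. With all libraries its log2 fold change came to -0.32 (SE 0.18, 95% interval -0.74 to 0.10, edgeR adjusted p = 0.483), and to -0.02 without flox 2, which was 1.64 times the mean of flox 1 and flox 3. Gfi1 and Cebpa, without flox 2, gave -0.19 and -0.09.

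**Figure D2:**
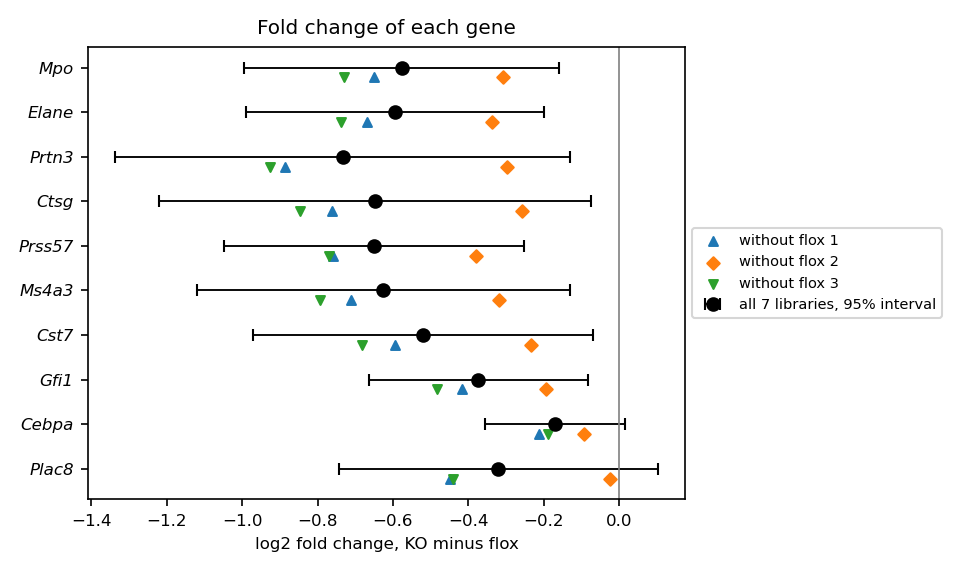
Log2 fold change (KO minus flox) of each gene; black points with bars are the fit of all 7 libraries with its 95% interval, and coloured markers the fit without each flox library. The interval lies below 0 for 8 genes and reaches past 0 for Cebpa and Plac8, and the values without flox 2 lie nearest 0 for all 10.

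The genes varied together from library to library, also within a group. KO 2 was the highest of the KO libraries for 10 of 10 genes and KO 3 the lowest for 8. Across the 7 libraries, Pearson's r of log2 CPM between pairs of the 10 genes ran from 0.71 (Cebpa with Plac8) to 0.99 (Prtn3 with Ctsg), with a median of 0.96 over 45 pairs. After the group means were removed, with flox 2 kept, the median was 0.95, with a range of 0.59 to 0.99. Without flox 2, and with the group means left in, the median was 0.88, with a range of 0.25 to 0.99. No correlation was taken with both steps. The 28 pairs without Cebpa and Plac8 kept to 0.71 or higher without flox 2. The pairs share libraries and depth, so these values are a description.

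The make-up of the summed level was much alike in the 7 libraries. Mpo held 50.3% ± 0.80 of the 10 genes' summed CPM in KO (SD, n = 4) and 50.7% ± 1.22 in flox (SD, n = 3), and Elane 15.9% ± 0.57 in KO and 16.3% ± 0.49 in flox. Prtn3 held 11.3% ± 0.25 in KO and 12.3% ± 1.52 in flox, where flox 2 reached 14.0%. Plac8 held 7.47% to 8.98% of the sum in the KO libraries and 6.39% to 7.30% in the flox libraries, without overlap, and Cebpa 2.82% ± 0.29 in KO and 2.21% ± 0.48 in flox. The summed level itself was 3422, 4159, 3015 and 3589 CPM in KO and 4633, 7100 and 4091 CPM in flox, so that KO 2 and flox 3 were close.

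**Figure D3:**
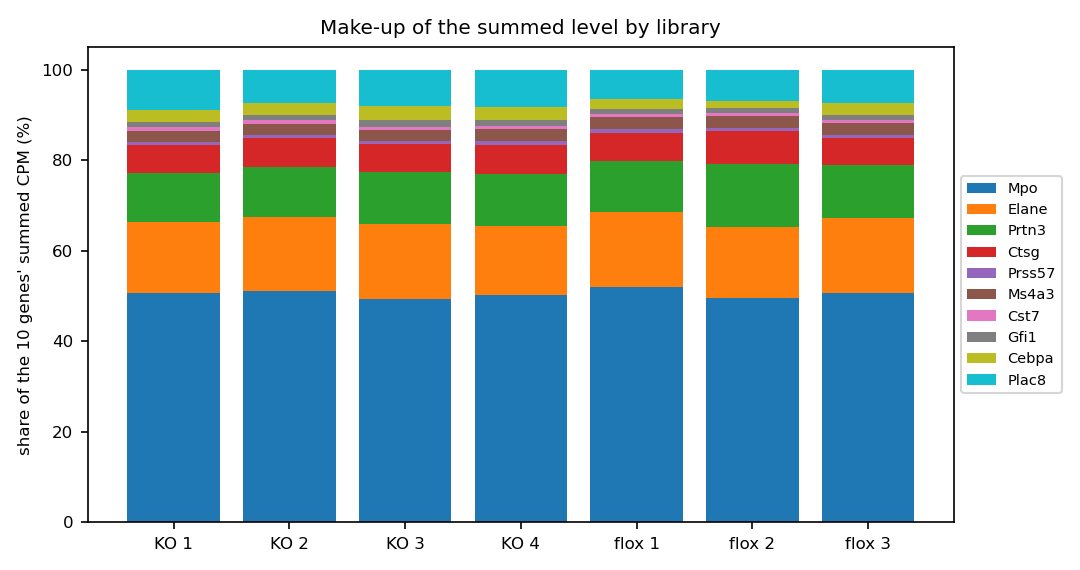
Share of each gene in the summed CPM of the 10 genes, by library, KO left of flox, each bar adding to the whole. Mpo takes 49.3% to 52.0% of the sum in every library, while the sum itself ranged from 3015 to 7100 CPM.

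Per kilobase of annotated exon, the order of the levels was the same in both groups. Elane stood at 574 ± 78.8 CPM per kb in KO and 867 ± 235 in flox, and Mpo at 522 ± 76.9 in KO and 779 ± 220.2 in flox (SD, n = 4 and n = 3); the libraries of these neighbours overlapped. Prtn3 (230.2 ± 29.5 in KO and 383 ± 167 in flox), Ctsg (215 ± 30.0 in KO and 337 ± 134 in flox) and Plac8 (182 ± 20.3 in KO and 227 ± 69.2 in flox) followed, each overlapping the next. Ms4a3 (47.7 ± 7.62 in KO and 73.6 ± 23.6 in flox), Cebpa (37.6 ± 2.97 in KO and 42.3 ± 3.05 in flox), Cst7 (26.9 ± 3.86 in KO and 38.6 ± 11.6 in flox), Gfi1 (13.5 ± 1.44 in KO and 17.5 ± 3.34 in flox) and Prss57 (8.94 ± 1.12 in KO and 14.0 ± 3.91 in flox) came after. In both groups Mpo lay clear of Prtn3, Plac8 clear of Ms4a3 and Cst7 clear of Gfi1; Ms4a3 and Cebpa overlapped in KO but not in flox, and Cebpa with Cst7 and Gfi1 with Prss57 in flox but not in KO. These overlaps set different libraries against each other. Within every single library the order of neighbours held, except in flox 2, where Cst7 (51.6 CPM per kb) lay above Cebpa (45.7 CPM per kb). The exon lengths are the union over all annotated transcripts, which overstates the length of genes with rare long transcripts.

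The promoters of Mpo, Elane, Prtn3 and Ctsg are shown because these 4 genes had the highest levels per kilobase of exon. Their levels varied together (Pearson's r of 0.98 to 0.99), but Ms4a3 followed each of them as closely (0.98 to 0.99). The windows span 250 bases before to 50 after the annotated start, from RefSeq on GRCm38.p6, 5' to 3' on the strand of the gene. They lie at chr11:87793534-87793833 (plus strand), chr10:79886062-79886361 (plus), chr10:79879417-79879716 (plus) and chr14:56102525-56102824 (minus). Capitals mark matches on either strand to GAGGAAG, a core of the sites of PU.1, to AACGG, a MYB core, to TGTGGT, a RUNX core, and to TTGCNNAA, a C/EBP form.
Mpo: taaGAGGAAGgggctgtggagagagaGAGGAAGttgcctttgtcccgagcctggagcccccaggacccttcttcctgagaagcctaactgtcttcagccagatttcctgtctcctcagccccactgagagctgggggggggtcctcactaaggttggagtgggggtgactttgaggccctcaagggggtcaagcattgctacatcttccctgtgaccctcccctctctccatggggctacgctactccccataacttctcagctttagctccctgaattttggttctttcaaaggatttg
Elane: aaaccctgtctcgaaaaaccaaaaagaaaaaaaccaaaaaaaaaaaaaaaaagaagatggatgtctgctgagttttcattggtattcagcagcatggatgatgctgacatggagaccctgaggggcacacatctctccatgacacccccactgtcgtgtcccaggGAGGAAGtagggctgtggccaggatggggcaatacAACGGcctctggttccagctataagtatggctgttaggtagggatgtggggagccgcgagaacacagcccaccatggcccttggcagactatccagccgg
Prtn3: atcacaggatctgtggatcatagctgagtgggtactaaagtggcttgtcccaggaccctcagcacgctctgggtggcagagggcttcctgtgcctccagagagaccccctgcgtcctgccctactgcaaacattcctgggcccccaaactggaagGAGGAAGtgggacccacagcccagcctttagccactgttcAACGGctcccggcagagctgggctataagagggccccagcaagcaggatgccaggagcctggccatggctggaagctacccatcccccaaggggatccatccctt
Ctsg: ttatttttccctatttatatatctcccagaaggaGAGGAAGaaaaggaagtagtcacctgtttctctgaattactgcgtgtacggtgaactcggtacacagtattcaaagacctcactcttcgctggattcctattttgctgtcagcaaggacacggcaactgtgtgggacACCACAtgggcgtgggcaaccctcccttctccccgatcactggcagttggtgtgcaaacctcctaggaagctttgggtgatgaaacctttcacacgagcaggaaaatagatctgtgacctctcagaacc

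GAGGAAG was present in these 4 promoters, in the direction of the gene each time, and in none of the windows of Ms4a3, Cst7, Gfi1, Cebpa and Plac8, so in 4 of the 9 genes with a promoter in the table. It was in 13.6% of 32851 mouse promoter windows of that length. Elane and Prtn3 had similar layouts, with GAGGAAG starting at position -85 and AACGG at -50 in Elane and at -95 and -55 in Prtn3. Ctsg also held the RUNX core on the opposite strand at -79. Of the 9 genes, AACGG was in 4 (Elane, Prtn3, Cebpa and Plac8; 17.4% of all windows), TTGCNNAA in 4 (Ms4a3, Cst7, Gfi1 and Plac8; 10.8%) and TGTGGT in 3 (Ctsg, Cst7 and Plac8; 16.8%). Gfi1 and Plac8 have 2 windows each. No marked match overlaps another in the 4 windows shown, and a match is a description of the sequence, not a bound site.

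Elane, Prtn3 and Prss57 lie in 1 region of chromosome 10 (GRCm38), with Prtn3 ending 3.07 kb and Prss57 95.3 kb before Elane starts. Within 100 kb of Elane, 14 other genes were tested, 9 lower and 5 higher in KO, and 0 passed in edgeR (5 at an unadjusted p under 0.05, where 14.1% of all tested genes were). Palm, the gene of a lipid-anchored membrane protein next to Prss57, had 99.8 ± 5.17 CPM in KO (SD, n = 4) and 130.4 ± 18.5 CPM in flox (SD, n = 3), without overlap (log2 fold change -0.39, SE 0.09, edgeR adjusted p = 0.177). Plppr3, which overlaps Prtn3 by 159 bases on the opposite strand, gave -0.49 (SE 0.21, edgeR adjusted p = 0.35), with flox 2 at 60.7 CPM against 34.9 and 33.2 CPM in flox 1 and flox 3. Reads in that overlap cannot be told apart. Between them, Ptbp1, a splicing regulator, gave -0.05 (SE 0.08), and Misp, an actin-bundling protein, gave 1.17 (SE 0.22, adjusted p = 0.0965), at 2.23 ± 0.29 CPM in KO and 0.990 ± 0.23 CPM in flox. Of the others, Cfd (-0.60, SE 0.69), Med16 (-0.04, SE 0.09), R3hdm4 (-0.23, SE 0.09), Kiss1r (-0.21, SE 0.19), Arid3a (-0.19, SE 0.08) and Wdr18 (-0.01, SE 0.10) had adjusted p of 0.315 or more, as did Grin3b (0.23, SE 0.38), Tmem259 (0.10, SE 0.08), E130317F20Rik (0.12, SE 0.17) and Gm26602 (0.24, SE 0.48).

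**Figure D4:**
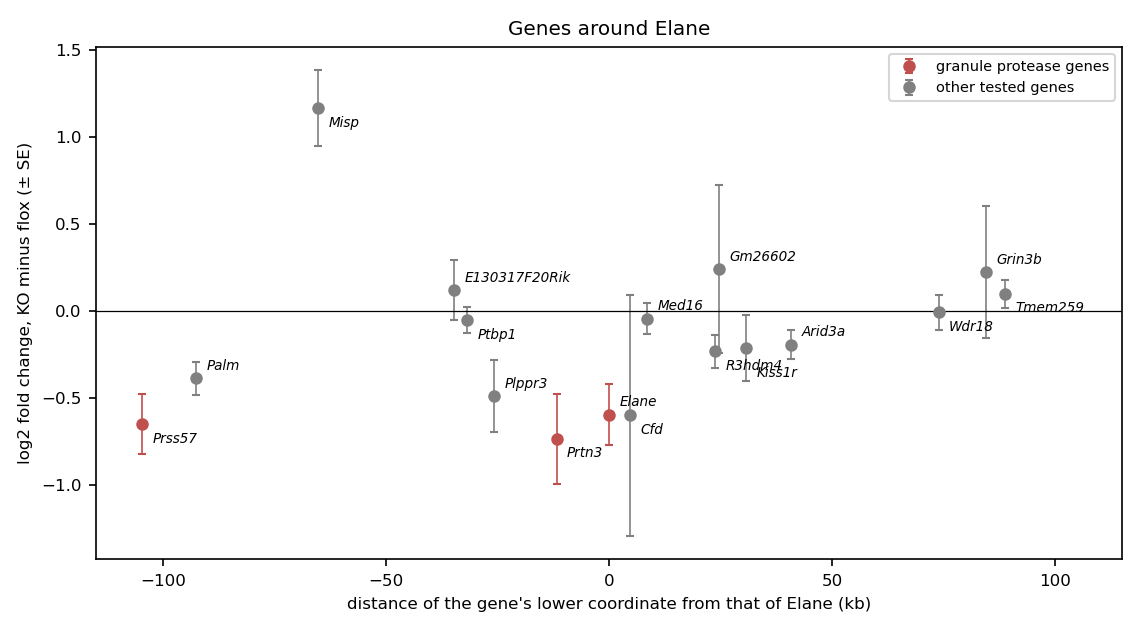
Log2 fold change (KO minus flox, with SE) of each tested gene within 100 kb of Elane, by the distance of its lower coordinate from that of Elane. The 3 protease genes (red) lie between -0.73 and -0.59, with Palm and Plppr3 at -0.39 and -0.49 and Ptbp1 between them at -0.05.

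Genes that process, store or restrain the granule cargo were also lower in KO on average, by less. Of 23 listed, 22 were tested, all 22 were lower and 0 passed in edgeR, with a median log2 fold change of -0.20 (-0.14 without flox 2, with 21 lower). At an unadjusted p under 0.05, 10 of the 22 were lower, against 8.17% of all tested genes, and in 9 of the 22 the groups did not overlap, against 7.41%. Rab27a, a GTPase of granule release, had 145 ± 9.95 CPM in KO (SD, n = 4) and 189.6 ± 29.0 CPM in flox (SD, n = 3), at -0.39 (SE 0.10, edgeR adjusted p = 0.206). The granule membrane gene Cd63 gave -0.36 (SE 0.11) and Unc13d, which primes granules for fusion, -0.21 (SE 0.08), with edgeR adjusted p of 0.231 and 0.275. Ctsc, whose product cathepsin C activates the serine proteases, gave -0.25 (SE 0.18), the proteoglycan gene Srgn, which holds the cargo, -0.22 (SE 0.12) and Serpinb1a, an inhibitor of elastase, -0.42 (SE 0.15), with adjusted p of 0.594, 0.441 and 0.286. Bpi, at 0.0455 to 0.128 CPM in KO and 0.0427 to 0.0820 CPM in flox, did not pass the filter on low counts.

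Taken as 1 list, the other granulocyte transcription regulators and receptors were spread around 0. Of 24 tested genes 14 were lower and 10 higher in KO, with a median of -0.03 that was 0.02 without flox 2 and 0.01 without KO 3, and 0 passed in edgeR. At an unadjusted p under 0.05 there were 5 of 24, against 14.1% of all tested genes. The receptor genes of the list were all lower in KO, at log2 fold changes of -0.33 to -0.09. The 10 higher genes were thus all on the regulator side, and this split was not tested. Cebpe, which follows Cebpa at the switch to secondary granules, had 95.3 ± 13.2 CPM in KO and 128 ± 24.6 CPM in flox (log2 fold change -0.42, SE 0.14, edgeR adjusted p = 0.262). Spi1, the gene of PU.1, had 241 ± 15.0 CPM in KO and 289 ± 34.7 CPM in flox, without overlap (-0.26, SE 0.09, adjusted p = 0.268), and the cytokine receptor gene Csf2rb gave -0.33 (SE 0.13, adjusted p = 0.304). Irf8, which favours monocytes over granulocytes, gave 0.07 (SE 0.14, adjusted p = 0.878). Egr1, an early response gene linked to the monocyte fate, stood at 41.0, 35.6, 19.5 and 22.9 CPM in KO and 11.9, 11.6 and 7.56 CPM in flox, the lowest p of the list (1.52, SE 0.31, adjusted p = 0.153).

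Along neutrophil maturation, 14 early progenitor genes had a median of -0.19, 13 secondary granule genes -0.37 and 14 late neutrophil genes -0.29, beside -0.59 for the 10 primary granule genes and regulators. Without flox 2 these medians were -0.04, -0.18, -0.15 and -0.28. The early progenitor median was also -0.08 without KO 3 and -0.31 without KO 2, and the late neutrophil median -0.17 without KO 4. Secondary granule genes were lower in 12 of 13, late neutrophil genes in 13 of 14 and early progenitor genes in 10 of 14 members (7 of 14 without flox 2), and none passed in edgeR, while 10 secondary granule, 4 late neutrophil and 4 early progenitor genes had an unadjusted p under 0.05, against 14.1% of all tested genes. The ratio of the 10 genes' summed CPM to that of the secondary granule genes was 0.168, 0.159, 0.122 and 0.157 in KO and 0.163, 0.194 and 0.157 in flox. KO and flox overlapped in this ratio, with KO 3 lowest and flox 2 highest. Cycling genes, in which promyelocytes also take part, had a median of 0.03 over 16 genes, with 12 higher in KO, and of -0.01 without flox 2, with 4 higher.

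Markers of other cell types also differed between the libraries. Flox 2 had the lowest erythroid sum, 36319 CPM, against 57299 to 75661 CPM in KO and 60729 and 50089.9 CPM in flox 1 and flox 3; all 13 tested erythroid genes were higher in KO, with a median of 0.20 that was 0.03 without flox 2 (8 of 13 higher). B lineage genes summed to 2272 to 3125 CPM in KO and to 397, 3037 and 1936 CPM in flox 1, 2 and 3. Much of that sum was Ighm, at 1136 to 2128 CPM in KO and 302, 2485 and 1061 CPM in flox 1, 2 and 3. All 15 B lineage genes were higher in KO (median 1.07, and 0.55 without flox 1, with 14 of 15 higher). In 9 of the 15, not Ighm, the groups did not overlap, where 1115 of 17918 tested gene symbols were higher in KO without overlap. Monocyte genes summed to 2140 to 2440.3 CPM in KO and 2489 to 3032 CPM in flox (11 of 13 lower, median -0.14). Their median was -0.07 without flox 2 or without KO 3 and -0.26 without KO 1. Eosinophil, basophil and mast cell genes summed to 1053 to 2528 CPM in KO and 2380.3 to 2647 CPM in flox (12 of 13 lower, median -0.36, and -0.14 without KO 3, which had the sum of 1053 CPM). Megakaryocyte genes summed to 548 to 787 CPM in KO and 714 to 1345 CPM in flox (12 of 12 lower, median -0.67) and stromal and endothelial genes to 674 to 842 CPM in KO and 803 to 1458 CPM in flox (13 of 14 lower, median -0.73). Flox 1 held the highest sum of both lists, and without it both medians were -0.39, with 12 of 12 and 11 of 14 lower. T and NK cell genes summed to 85.1 to 107 CPM in KO and 77.1 to 81.5 CPM in flox (10 of 12 higher, median 0.21), and general leukocyte genes to 2993 to 3350.4 CPM in KO and 3239 to 3847 CPM in flox (6 of 6 lower, median -0.13, and -0.04 without flox 2). A list of 16 intestinal epithelial genes, some of them known from earlier calls in these data, summed to 137 to 176 CPM in KO and 63.3 to 66.2 CPM in flox (16 of 16 higher, median 1.24). Of these, 14 passed the edgeR threshold with all libraries, 10 without flox 1, 4 without flox 2 and 2 without flox 3 or any 1 KO library, with all 16 higher each time. White adipose genes summed to 132 to 200.4 CPM in KO and 149 to 183 CPM in flox (7 of 9 lower, median -0.20), a median that ranged from -0.47 without KO 3 to -0.01 without KO 1. The part of these markers in the levels of the 10 genes was not tested.

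**Figure D5:**
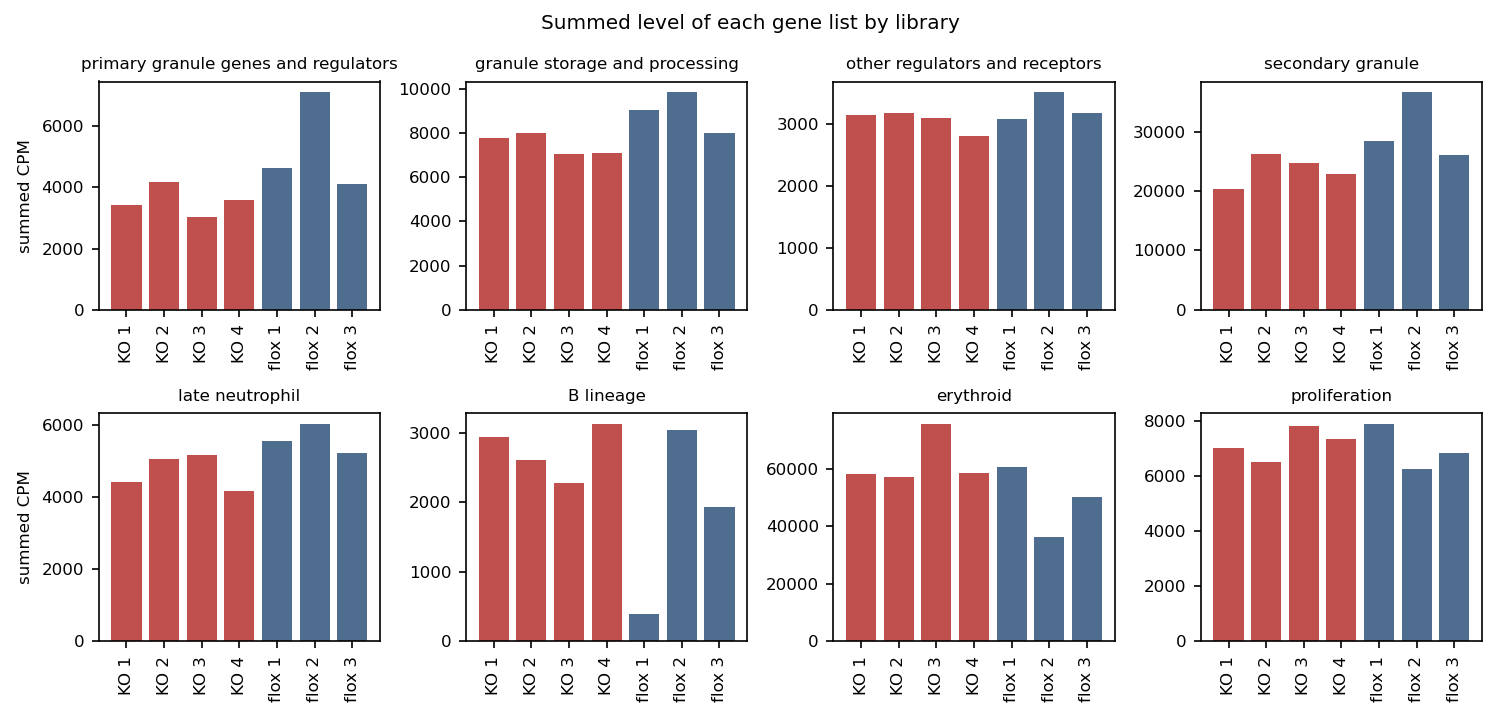
Summed CPM of 8 gene lists in every library, KO (red) left of flox (blue). Flox 2 has the highest bar for the 4 neutrophil cargo and stage lists and for the other regulators and receptors. It has the lowest bar for erythroid and proliferation genes, and flox 1 has the lowest bar for B lineage genes.

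Outside the 10 genes, the tested genes whose log2 CPM followed them most closely over the 7 libraries were Tmem216 (Pearson's r = 0.995 with their mean standardised level), Arpc2 (0.994), Tmed3 (0.994), Pdia5 (0.993), Pgam1 (0.990), P4hb (0.990), F10 (0.989), Cdca7l (0.988), Ddost (0.988) and Neu1 (0.987). Arpc2 encodes an actin-nucleating subunit, Pdia5 and P4hb protein disulfide isomerases, Pgam1 a glycolytic enzyme, F10 coagulation factor X and Neu1 a lysosomal sialidase. P4hb, for instance, had 389, 417, 346 and 393 CPM in KO and 449.6, 621 and 425 CPM in flox, again highest in flox 2. All 10 were lower in KO, with log2 fold changes of -0.48 to -0.19 and edgeR adjusted p of 0.253 to 0.396. Without flox 2 the correlations were 0.947 to 0.982 over 6 libraries. They were picked for this likeness from the tested genes, so the values describe these libraries only. Predicted Gm and Rik genes, pseudogenes, IDs without a symbol and immunoglobulin or T cell receptor segments were left out before the pick.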

How the data were processed

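RNA was sequenced after poly(A) selection from 7 marrow libraries, 4 KO and 3 flox, per the labels' protocols. The authors deposited raw counts per Ensembl gene, 1 column per library. The submitters' processing notes name Trimmomatic 0.36, STAR 2.5.2b, Subread 1.5.2 with its featureCounts, and the build GRCm38. No source used here gives the annotation release, strand setting or treatment of multi-mapping reads. Symbols and positions came from GENCODE M21 (49056 of 49315 IDs matched). Intervals cover the spread between libraries; totals are in the report.

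Counts were filtered with filterByExpr (minimum count 10), scaled with TMM and fitted over all 17920 genes with robust edgeR 4.0.16 glmQLFit in R 4.3.3; glmQLFTest was two-sided with Benjamini-Hochberg adjustment over all tested genes and a threshold of 0.05. DESeq2 1.42.0 and limma 3.58.1 were alternatives, beside other scalings and filters, a fit blocked on replicate number and fits with each library left out. Standard errors come from the quasi-likelihood F statistic, and log2 CPM uses a prior count of 2. The procedure was tested on simulated data, where it passed 22% of the genes changed 1.5-fold and 52% of those changed 2-fold. A gene that did not pass can therefore still differ. Members and gene lists were chosen with earlier results of these data known, so lists were given no test. Named genes were all 10 members, of the cargo-handling and regulator lists the 4 with the lowest p plus Ctsc, Srgn, Serpinb1a, Cebpe, Spi1 and Irf8, the 10 most correlated genes and all genes within 100 kb of Elane; 1 gene of the cargo-handling list that this rule names is not reported here. The lists of early progenitor, secondary granule, late neutrophil, monocyte, B lineage, erythroid, megakaryocyte, eosinophil with basophil and mast cell, T and NK cell, cycling, stromal and endothelial, intestinal, adipose and leukocyte genes are described by counts and sums. Libraries of a group differed by more than sampling noise (chi-square over its degrees of freedom, 19.0 to 90.6).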

Additional observations from a re-analysis of the deposited data

Results flagged for a closer look

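In the 4 KO libraries, 2 of 27 levels looked at had 1 library far from the others. The summed level of monocyte genes was 2140 CPM in KO 3, against 2399, 2440.3 and 2397 CPM in KO 1, KO 2 and KO 4 (gap over range 0.854). The summed level of erythroid genes was 75661 CPM in KO 3, against 58163, 57299 and 58625 CPM in the others (0.928). KO 3 was also the lowest KO library for 8 of the 10 granule genes and regulators. Chance flags about 1 in 20 such groups of 4.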

How the results depend on the processing

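All 10 genes were below 0 in all 170 values from 17 alternatives (10 genes each), and 168 stayed on the same side of the threshold. The 2 exceptions were Elane and Prss57 under DESeq2, with log2 fold changes of -0.58 and -0.64, so that DESeq2 passed 2 members where the other settings passed 0. The members' median of -0.59 ranged from -0.73 without flox 3 to -0.28 without flox 2; with all libraries kept it lay between -0.59 and -0.56. Another scaling moved the median over all genes from -0.01 to at most 0.01. The count of genes past the threshold was 26 (24 higher, 2 lower), and became 112 without a filter on low counts (84 higher, 28 lower), 362 with DESeq2 (230 higher, 132 lower), 13 with limma-voom, 16 with non-robust dispersion, 66 at an adjusted p of 0.1 and 2 to 14 when 1 library was left out; the cause was not tested. With the replicate block it was 4 (members 0, members' median -0.56, intestinal list 1, regulator and receptor list 1, stromal and endothelial list 1). Libraries of the same number did not deviate together (correlations of -0.02, 0.08 and 0.02), so the numbers were not taken as pairs. Each gene had 991 to 171531 counts in each library, so their counting error is small beside the spread between libraries.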
